A study of Mus musculus with 12 samples.

Results

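The genes described here are 10 transcription factors that direct the fate and maturation of epidermal keratinocytes: Trp63, Klf4, Grhl1, Grhl3, Gata3, Ovol1, Prdm1, Zfp750, Maf and Hopx. They were chosen by symbol from the 55487 genes of the deposited tables, and each symbol was found once. The tables hold 12 libraries from full-thickness 6 mm punch wounds on the backs of 6-week-old male C57BL/6JNarl mice, which carried 2 wounds each. In the sham group, wounds received 200 µL of 25% Pluronic F127 gel daily, and CAP-treated wounds received the same gel with 10 µM capsaicin (CAP), the pungent compound of chili peppers. Tissue was taken at day 3 and day 6, with 3 libraries in each of the 4 groups. The labels name no genotype other than the strain, and the gel was common to all groups. No source used here says whether 2 libraries can come from 1 mouse, and n is a number of libraries. The p-values therefore measure the spread between libraries, which may in part be technical.

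The epidermis is renewed from a basal layer of dividing keratinocytes that carry Krt5 and Krt14. Cells that leave this layer switch to Krt1 and Krt10, then make the proteins of the cornified envelope and die as flattened squames. Trp63 encodes p63, the factor that maintains the basal, stratified state and opens the later programme. Klf4, Grhl1, Grhl3, Gata3, Ovol1, Prdm1, Zfp750, Maf and Hopx are used at later steps, in the exit from division, the making of junctions and the building of the skin barrier. Several of them also work outside keratinocytes: Gata3 in T cells, Maf in macrophages and T cells, Prdm1 in lymphocytes, and Klf4 in stromal and myeloid cells. The samples are whole wound tissue, so more keratinocytes of a type and more RNA of a gene per cell cannot be told apart.

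All 10 genes are annotated as protein-coding, and the coordinates in the files are those of GRCm38. Trp63 lies on chr16:25683763-25892102 (+), Klf4 on chr4:55527143-55532466 (-), Grhl1 on chr12:24572283-24617391 (+) and Grhl3 on chr4:135541888-135573630 (-). Gata3 lies on chr2:9857078-9890034 (-), Ovol1 on chr19:5549136-5560646 (-) and Prdm1 on chr10:44437177-44528501 (-). Zfp750 lies on chr11:121510978-121519333 (-), Maf on chr8:115682942-115707794 (-) and Hopx on chr5:77086988-77115121 (-). The whole of Zfp750 sits inside Tbcd, a tubulin-folding gene on the other strand, which stood at 22.6 to 30.3 TPM in the 12 libraries. Gata3 is overlapped by 3 genes, of which 4930412O13Rik, on the other strand, was the most abundant at 5.91 to 12.3 TPM. The strand setting of the read assignment is not given, so reads of such overlapping genes may not be told apart. Stretches of 31 bases in the transcripts of Trp63, Grhl3, Ovol1 and Zfp750 were found in no other gene's transcripts. For the other 6 genes, at most 2.0% of the stretches were shared, the highest share being that of Klf4.

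Promoter sequences from RefSeq (GRCm38.p6) were matched for 6 of the 10 members, Klf4, Grhl1, Grhl3, Gata3, Prdm1 and Hopx, in 8 windows of 300 bases that run from 250 before to 50 after a start. The 250 bases upstream of Klf4, Grhl1 and Grhl3 are shown because these genes differed most between CAP-treated and sham wounds at day 6 among the matched members. They run 5′ to 3′ on the gene's strand, with any match to CACCC, the core of the site that KLF proteins bind, in capitals. The windows are chr4:55532476-55532725 (-) for Klf4, chr12:24572037-24572286 (+) for Grhl1 and chr4:135573633-135573882 (-) for Grhl3.
Klf4: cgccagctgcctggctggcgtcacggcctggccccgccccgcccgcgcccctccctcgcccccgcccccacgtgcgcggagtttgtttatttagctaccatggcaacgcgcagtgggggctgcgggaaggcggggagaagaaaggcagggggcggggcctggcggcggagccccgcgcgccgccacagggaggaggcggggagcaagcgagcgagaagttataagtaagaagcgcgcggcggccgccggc
Grhl1: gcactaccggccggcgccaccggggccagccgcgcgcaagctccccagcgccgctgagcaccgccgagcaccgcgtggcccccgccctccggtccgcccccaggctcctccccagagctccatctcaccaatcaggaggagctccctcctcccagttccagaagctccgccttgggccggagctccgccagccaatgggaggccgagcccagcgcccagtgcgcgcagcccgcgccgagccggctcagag
Grhl3: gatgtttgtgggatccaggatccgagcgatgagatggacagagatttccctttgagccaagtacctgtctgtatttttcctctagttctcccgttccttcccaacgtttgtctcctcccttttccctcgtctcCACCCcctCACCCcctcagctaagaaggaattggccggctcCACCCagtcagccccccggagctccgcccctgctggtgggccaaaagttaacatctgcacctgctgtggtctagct
The Grhl3 sequence holds CACCC 3 times, beginning 117, 109 and 76 bases before the start, and the Klf4 and Grhl1 stretches shown hold none. Both strands were searched in all windows. CACCC was found in 3 of the 8 windows, those of Grhl3, Gata3 and a downstream start of Grhl1, and in 57.5% of 32851 mouse promoters of the same length. TGCTGA, a half-site of MAF proteins, was found in 2 of the 8 windows, Gata3 and Hopx, against 19.5% of all promoters. No window held the GRHL site AACCGGTT, which 0.146% of all promoters hold. The GATA site AGATAA was likewise found in no window, against 11.2% of all promoters. The same held for the OVOL site CCGTTA, found in 2.76%, and for the PRDM1 site GAAAGTG, found in 4.81%. The p53-family half-site, a sequence that p63 can bind, was found in no window and in 8.36% of promoters. In the Gata3 window, matches to CACCC shared a base.

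The values are in TPM, the share of a gene among the transcripts of a library after division by transcript length. The depth of the libraries is unknown, since TPM does not carry it, and 18533 to 19325 genes reached 0.3 TPM in a library. Epidermal tissue was present in every library: the 12 basal keratinocyte markers summed to between 14768 and 32196 TPM, and the 10 suprabasal ones to between 14803 and 92119 TPM. CAP day 6 replicate 2 stood apart, with the highest Krt10 of all libraries at 40801 TPM and the lowest Pecam1, an endothelial adhesion gene, at 25.7 TPM.

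In levels (TPM), Klf4 was the most abundant of the 10 genes and Prdm1 the least in each of the 4 groups. Over the 12 libraries, Klf4 averaged 458 ± 142 TPM (SD, n = 12) and Prdm1 22.7 ± 6.36. Between them, the means were 172 TPM for Zfp750, 165 for Maf, 151 for Grhl1, 139.9 for Trp63, 114 for Grhl3, 106 for Gata3, 105 for Hopx and 73.3 for Ovol1. The libraries of neighbours in this order mostly overlapped within a group. The exceptions were Klf4 and the gene below it and Prdm1 and the gene above it in all 4 groups, Grhl3 above Ovol1 in CAP-treated wounds at day 3, and Maf above Zfp750 in sham wounds at day 6. Ovol1 and Grhl3 varied most, the highest library being 3.43 and 3.37 times the lowest. Maf varied least, at 1.26 times.

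Trp63, the factor of the basal layer, gave 124, 150.4 and 141 TPM in the sham group and 174, 168 and 112 TPM in CAP-treated wounds at day 3. The day 6 values were 138, 139.7 and 96.5 TPM in the sham group and 161, 139 and 134 TPM with CAP. The groups overlapped at both days, and sham replicate 3 of day 6 held the lowest value.

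Gata3, which takes part in barrier lipid synthesis and hair follicle fate, gave 81.6, 116 and 112 TPM in the sham group and 128, 113 and 81.9 TPM with CAP at day 3. By day 6 Gata3 stood at 114, 91.7 and 72.5 TPM in the sham group and at 115, 147 and 99.4 TPM with CAP. The groups overlapped at both days, although 2 of the 3 CAP libraries of day 6 were above every sham library. Ovol1, a zinc finger repressor that stops the division of differentiating keratinocytes, gave 46.0, 77.3 and 67.8 TPM in the sham group and 66.1, 63.6 and 49.6 TPM with CAP at day 3. At day 6 its values were 53.1, 86.5 and 42.5 TPM in the sham group and 104, 145 and 78.4 TPM with CAP. Here 2 of 3 CAP libraries were above every sham library, and sham replicate 2 reached above CAP replicate 3.

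Klf4, a zinc finger factor needed for the skin barrier, gave 377, 483 and 421 TPM in the sham group and 445, 409 and 391 TPM with CAP at day 3. Klf4 stood at 340.1, 407 and 286 TPM in the sham group and at 577, 833 and 523 TPM with CAP at day 6. All 3 CAP libraries of day 6 were above every sham library of either day. Zfp750, a target of p63 that switches on terminal differentiation, gave 145, 198 and 177 TPM in the sham group and 199, 205 and 129.9 TPM with CAP at day 3. On day 6 the values were 137, 144 and 110.2 TPM in the sham group and 236, 214 and 174 TPM with CAP. These day 6 groups did not overlap.

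Grhl1, a grainyhead factor that controls desmosomal cadherins, gave 99.5, 167 and 137 TPM in the sham group and 167, 153 and 114 TPM with CAP at day 3. Its day 6 values were 128, 148 and 99.5 TPM in the sham group and 198, 239 and 163 TPM with CAP, without overlap. Grhl3, its relative in barrier formation and epidermal closure, gave 66.5, 112 and 99.1 TPM in the sham group and 104, 112 and 79.9 TPM with CAP at day 3. Grhl3 then gave 82.4, 137 and 68.1 TPM in the sham group and 151, 224 and 130.2 TPM with CAP at day 6. As with Ovol1, sham replicate 2 was above CAP replicate 3.

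Prdm1, or Blimp1, a repressor of the late, granular keratinocyte, gave 18.1, 19.8 and 17.6 TPM in the sham group and 20.3, 17.7 and 16.7 TPM with CAP at day 3. Prdm1 gave 21.6, 27.0 and 19.5 TPM in the sham group and 31.3, 37.2 and 25.5 TPM with CAP at day 6. The 3 CAP libraries of day 6 were above all 3 CAP libraries of day 3. Maf, a leucine zipper factor used in terminal differentiation, stood at 163, 147 and 175 TPM in the sham group and 162, 167 and 166 TPM with CAP at day 3. Day 6 values of Maf were 165, 156 and 177 TPM in the sham group and 158, 155 and 185 TPM with CAP, so that all 4 groups overlapped. Hopx, a homeodomain protein that does not itself bind DNA, gave 99.96, 123 and 123 TPM in the sham group and 129, 134 and 120.2 TPM with CAP at day 3. At day 6 it gave 89.7, 114 and 52.8 TPM in the sham group and 89.2, 111 and 74.4 TPM with CAP. The 3 CAP libraries of day 6 were below all 3 CAP libraries of day 3.

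**Figure D1:**
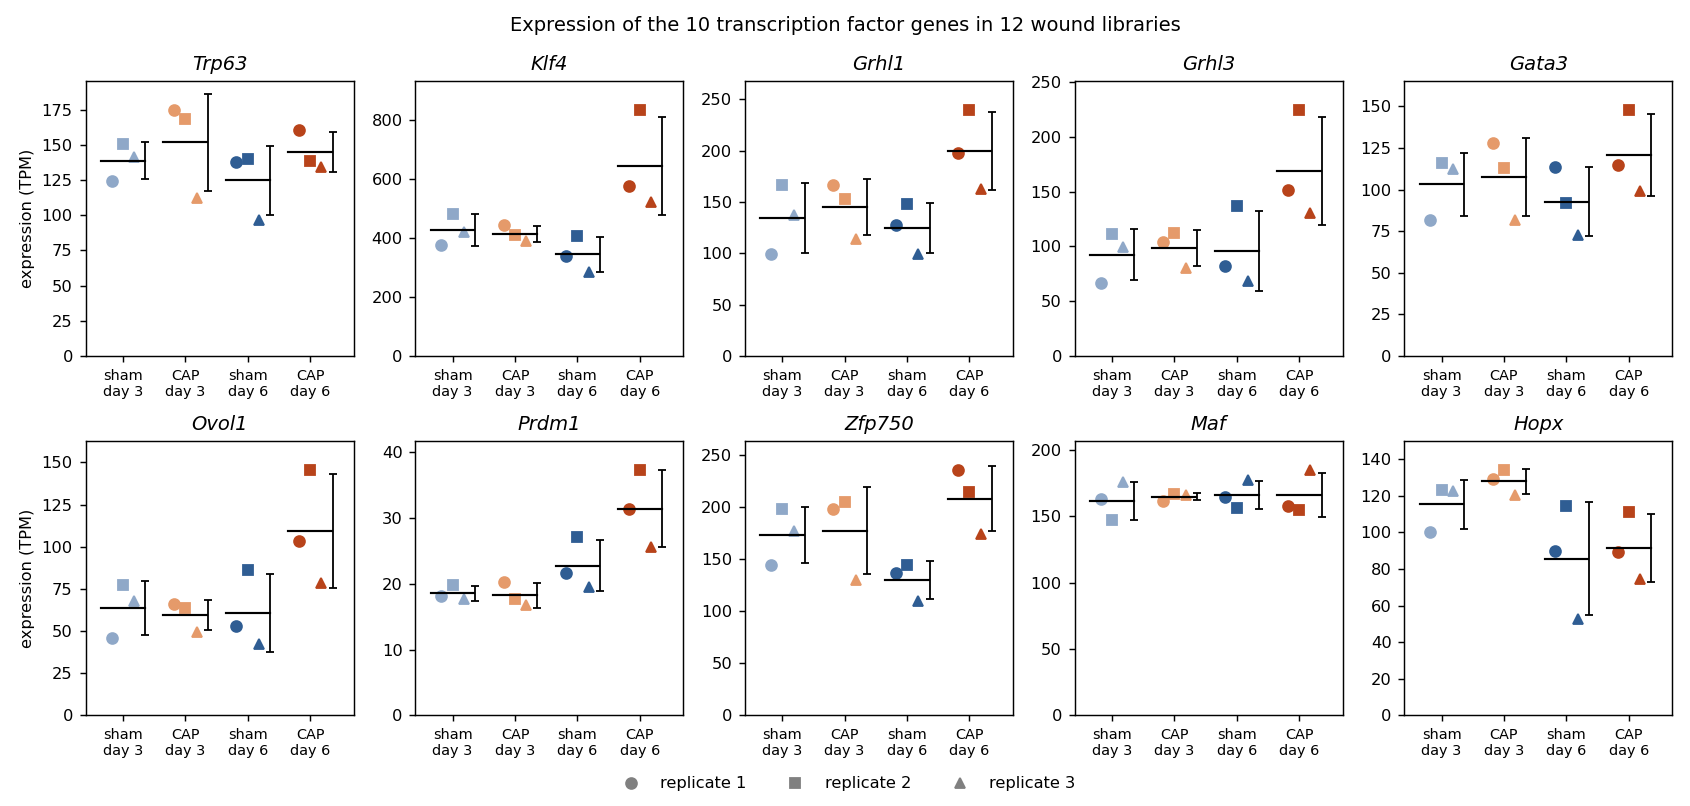
Expression (TPM, linear axis from 0) of each of the 10 genes in the 12 libraries; each point is 1 library, its shape the replicate number, the horizontal line the mean and the bar beside it ± 1 SD (n = 3). The CAP day 6 libraries of Klf4 (523 to 833 TPM), Grhl1 (163 to 239 TPM) and Zfp750 (174 to 236 TPM) lie above all sham day 6 libraries, while the 12 libraries of Maf lie between 147 and 185 TPM.

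The next question was whether CAP changed these genes at day 3, in the inflammatory phase of repair. None of the 10 passed the test. Log2 differences on the scale log2(TPM + 0.1), CAP minus sham, ran from -0.07 (Ovol1) to 0.15 (Hopx), with a median of 0.04 beside -0.05 over all 18330 genes tested. A gene counted as changed at an unadjusted p under 0.05 in limma and a difference of at least 2-fold, the threshold of the study. Of the members 0 of 10 passed it, where 1.58% of all genes did, and 0 of 10 had an unadjusted p under 0.05, where 6.6% of all genes did. Without CAP replicate 3 the latter count was 1, Trp63 (0.31, unadjusted p = 0.026), where 7.65% of all genes stood so. No other tool was run. The signs of Klf4 (-0.04) and Prdm1 (-0.03) turned with median-ratio scaling of the libraries. For Klf4, the 95% interval ran from -0.32 to 0.25, and for Maf from -0.19 to 0.25. Intervals were wider for Grhl1 (-0.40 to 0.64), Grhl3 (-0.41 to 0.63) and Ovol1 (-0.57 to 0.43), and a difference inside these bounds could not be told from 0.

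At day 6, when the wound is being covered by new epidermis, 9 of the 10 genes had a higher mean with CAP, and the mean of Maf was 166 TPM in both groups. Klf4 was higher by 0.89 ± 0.21 on the log2 scale (SE), or 1.85-fold with a 95% interval from 1.31 to 2.62 (unadjusted p = 0.0040). Ovol1 was higher by 0.87 ± 0.31 (1.82-fold, unadjusted p = 0.027) and Grhl3 by 0.84 ± 0.30 (1.79-fold, unadjusted p = 0.027). Grhl1 was higher by 0.68 ± 0.19 (1.6-fold, unadjusted p = 0.0097), Zfp750 by 0.67 ± 0.16 (1.59-fold, unadjusted p = 0.0035) and Prdm1 by 0.46 ± 0.18 (1.37-fold, unadjusted p = 0.040). Smaller were the differences of Gata3 (0.38, interval -0.10 to 0.87), Trp63 (0.23, -0.16 to 0.62) and Hopx (0.15, -0.54 to 0.84). Without sham replicate 3, Trp63 was at 0.056, Gata3 at 0.22 and Hopx at -0.16, and without CAP replicate 2, Gata3 was at 0.23. Maf differed by -0.01 (-0.26 to 0.25), and its sign turned with median-ratio scaling and with quantile normalization.

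None of these differences met the threshold for a changed gene, since none reached 2-fold: 0 of 10 members passed, where 3.8% of 18323 genes did. An unadjusted p under 0.05 was reached by 6 of the 10 members, all higher with CAP, where 6.67% of all genes were higher at that p and 12.5% lower. The groups did not overlap for 3 of the 10, Klf4, Grhl1 and Zfp750, all higher with CAP, where 8.01% of all genes stood so. For each of these 3 genes the exact permutation test gave p = 0.1, the smallest that 3 against 3 libraries allow. After Benjamini-Hochberg adjustment over all genes, limma's smallest adjusted p among the members was 0.21, for Klf4 and Zfp750, each higher in 3 of 3 CAP libraries than in every sham library. At an adjusted p under 0.05, 0 of the 18323 genes remained. The members' median log2 difference was 0.57 beside -0.12 over all genes. Median-ratio scaling moved that median of all genes to -0.01 and took Klf4 to 1.0, past the threshold, where 3.77% of all genes then were. Leaving out sham replicate 2, or CAP replicate 3, took 3 of the 10 members past it, Klf4, Grhl3 and Ovol1 (log2 differences of 1.02, 1.13 and 1.15 without the first, and of 1.02, 1.005 and 1.08 without the second). Of all genes, 3.57% passed in the first of these refits and 8.17% in the second, against 3.8% with all libraries. Without CAP replicate 3, limma's adjusted p for Klf4 was 0.044 and 29% of all genes had an unadjusted p under 0.05 (19.2% with all libraries), with 2 of 2 CAP libraries above all 3 sham libraries. Without CAP replicate 2, the library that stood apart, Klf4 was at 0.69, Zfp750 at 0.65 and Grhl1 at 0.54, and these 3 kept an unadjusted p under 0.05. Grhl3 (0.61, unadjusted p = 0.078), Ovol1 (0.64, unadjusted p = 0.080) and Prdm1 (0.33, unadjusted p = 0.11) did not, and the count was also 3 without sham replicate 3. At that p stood 12.5% and 11.6% of all genes in these refits.

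**Figure D2:**
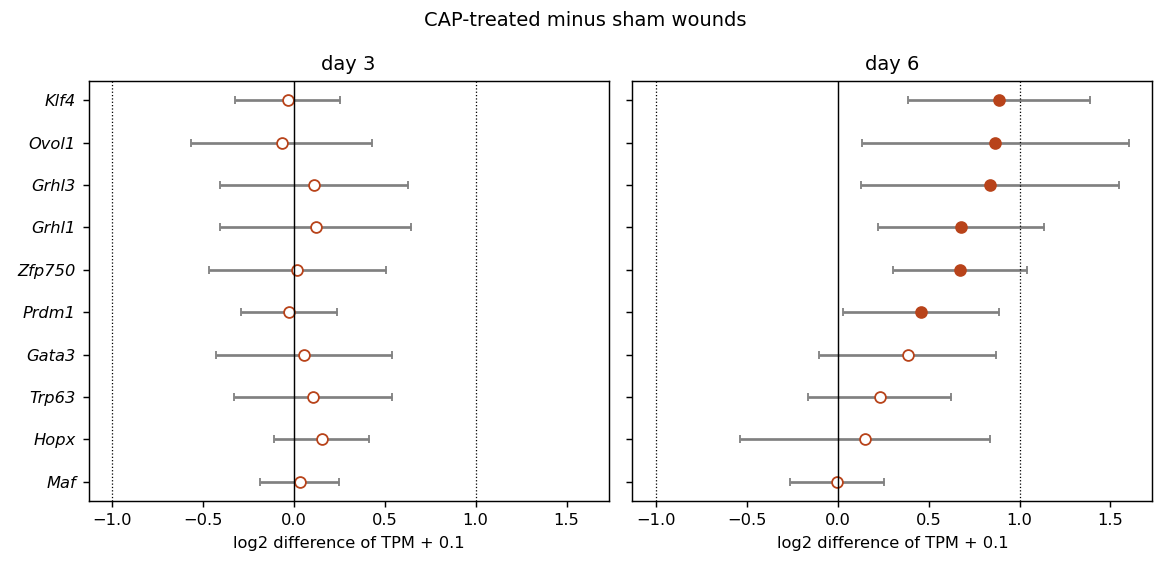
Difference between CAP-treated and sham wounds for each gene at day 3 (left) and day 6 (right), in log2 units of TPM + 0.1; points are limma estimates, bars 95% intervals, filled points an unadjusted p under 0.05, and dotted lines 2-fold. At day 3 all 10 points lie between -0.07 and 0.15, and at day 6 Klf4, Ovol1 and Grhl3 lie between 0.84 and 0.89, short of the dotted line.

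Between day 3 and day 6 in sham wounds, most members differed little. Zfp750 was lower at day 6 by 0.41 ± 0.15 on the log2 scale (173 ± 26.9 against 130.4 ± 17.95 TPM, SD, n = 3), and its groups did not overlap. Its unadjusted p was 0.028 and limma's adjusted p 0.24, with 3 of 3 libraries lower. Hopx was lower by 0.49 ± 0.26 and Klf4 by 0.32 ± 0.15, and Prdm1 was higher by 0.28 ± 0.14, each with an unadjusted p above 0.05. Past the threshold were 0 of 10 members, where 3.75% of 18368 genes were. An unadjusted p under 0.05 with a lower value was reached by 1 of 10, where 7.91% of all genes stood so, and groups without overlap and lower by 1 of 10, where 10.6% did. The count with an unadjusted p under 0.05 was 0 without sham day 3 replicate 2 or replicate 3, 2 without sham day 3 replicate 1 (Klf4 and Zfp750) and 3 without sham day 6 replicate 2 (Hopx, Klf4 and Zfp750). Of all genes, 16% had such a p with all libraries and 11.9% to 18% in these refits. The difference of Hopx was -0.18 without sham day 6 replicate 3 and -0.74 without replicate 2. The members' median was -0.13 beside 0.00 over all genes.

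In CAP-treated wounds, the same days gave higher values for 5 of the factors of late differentiation. Ovol1 was higher at day 6 by 0.83 ± 0.24 on the log2 scale (1.78-fold, unadjusted p = 0.010), Prdm1 by 0.77 ± 0.16 (1.70-fold, unadjusted p = 0.0025) and Grhl3 by 0.75 ± 0.23 (1.68-fold, unadjusted p = 0.014). Klf4 was higher by 0.61 ± 0.19 (1.52-fold, unadjusted p = 0.016) and Grhl1 by 0.47 ± 0.20 (1.38-fold, unadjusted p = 0.0498). Hopx was lower by 0.50 ± 0.16 (unadjusted p = 0.016). Zfp750 (0.25), Gata3 (0.17), Trp63 (-0.04) and Maf (0.00) had intervals that included 0. None of the 10 reached 2-fold, so 0 of 10 passed the threshold, where 2.79% of 18202 genes did. Those 5 of 10 higher at an unadjusted p under 0.05 stand beside 5.66% of all genes, and the 1 lower beside 5.91%. Without overlap between days were 4 members that were higher, Klf4, Ovol1, Grhl3 and Prdm1, where 8.05% of all genes were, and 1 that was lower, Hopx, where 9.63% were. For Prdm1, limma's adjusted p was 0.29, the lowest of the members, with 3 of 3 day 6 libraries above all of day 3. The members' median was 0.36 beside -0.05 over all genes. Leaving out CAP day 6 replicate 3 took Ovol1 to 1.05, past the threshold, where 4.91% of all genes then were. With 1 library left out, Grhl1 ranged from 0.31 to 0.61 and the count of members with an unadjusted p under 0.05 from 4 to 6. In these refits 6.66% to 16.5% of all genes had such a p, against 11.6% with all libraries. Markers of epidermal layers, T cells and other cells moved over the same days in CAP-treated wounds. Of 7 fibroblast genes, 6 had higher values and 4 did not overlap, with a median of 0.45. All 7 endothelial genes had higher values, with a median of 0.36, and 0 of either list passed the threshold. Of 4 wound keratins, 3 fell. Of 10 suprabasal genes, 3 rose, Krt1, Krt10 and Calml3, all 10 had higher values and 5 did not overlap, with a median of 0.59. Of 9 T cell genes tested, 2 rose, Cd4 and Trac, all 9 had higher values and 5 did not overlap, with a median of 0.80. In sham wounds 7 of 9 had higher values, with a median of 0.12, and Cd4 also rose. There 2 of 9 had an unadjusted p under 0.05, both higher, where 16% of all genes had such a p in either direction. With CAP the list summed to 172 to 215 TPM at day 3 and 268 to 299 TPM at day 6. In sham wounds the sums were also higher at day 6, at 245 to 300 TPM at day 3 and 303 to 376 TPM at day 6. At both days every sham sum was above every CAP sum. Most of the sums with CAP was Thy1, which averaged 166 TPM at day 3 and 205 TPM at day 6 in CAP-treated wounds. No T cell marker was listed at 0 throughout a group, and the part of these lists in the values of Prdm1 and the other members was not tested.

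**Figure D3:**
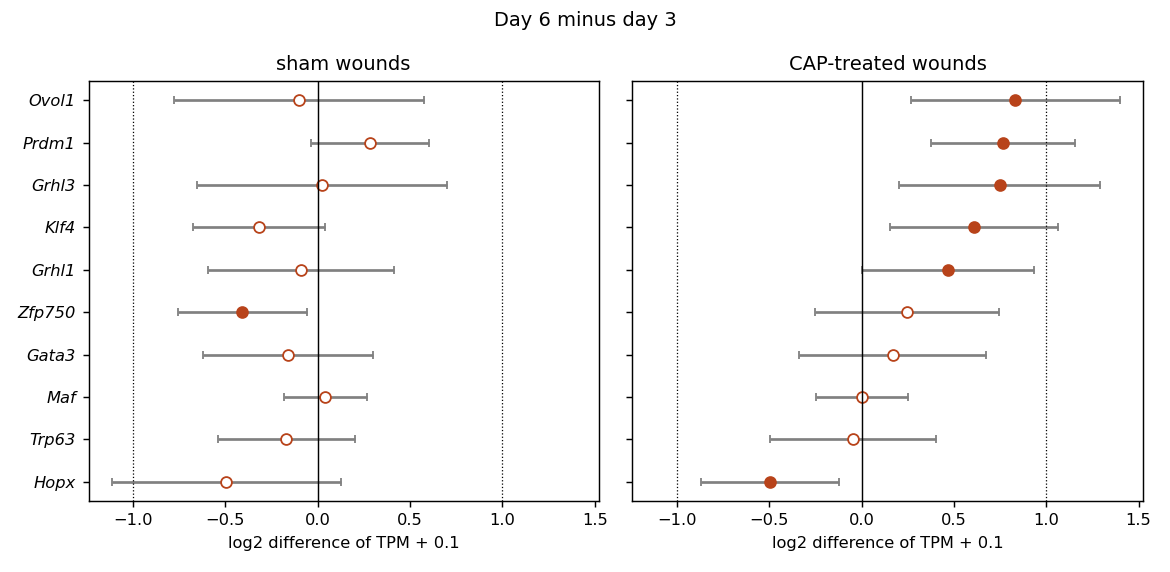
Difference between day 6 and day 3 for each gene in sham (left) and CAP-treated wounds (right), in log2 units of TPM + 0.1, with points, bars and dotted lines as for the effect of CAP; genes are ordered by the right panel. Hopx lies at -0.49 on the left, with a bar that crosses 0, and at -0.50 on the right, and Ovol1, Prdm1 and Grhl3 lie between -0.10 and 0.28 on the left and between 0.75 and 0.83 on the right.

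Whether the change with time differed between treatments was tested with the interaction term of a fit of all 12 libraries, in which 4.9% of 20267 genes passed the threshold and 0 of the 10 members. At an unadjusted p under 0.05, 4 of the 10 members had a more positive day effect with CAP, where 5.43% of all genes did. These were Ovol1 (0.93 ± 0.41, unadjusted p = 0.045), Klf4 (0.92 ± 0.26, unadjusted p = 0.0041), Zfp750 (0.65 ± 0.27, unadjusted p = 0.037) and Prdm1 (0.48 ± 0.22, unadjusted p = 0.0495). Grhl3 (0.73, unadjusted p = 0.10) and Grhl1 (0.56, unadjusted p = 0.11) did not reach it. The adjusted p in limma was 0.43 for Klf4 and Zfp750 and 0.44 for Ovol1 and Prdm1. Hopx gave an interaction of 0.00 with a 95% interval from -0.75 to 0.74. The members' median was 0.52 beside -0.06 over all genes. Leaving out sham day 6 replicate 2 put Klf4, Grhl3 and Ovol1 past the threshold (1.05, 1.02 and 1.22). Leaving out sham day 3 replicate 1 put Klf4 and Ovol1 past it (1.01 and 1.15), as did leaving out CAP day 6 replicate 3 (1.06 and 1.15). Of all genes, 4.75%, 6.68% and 8.74% passed in these 3 refits. The count with an unadjusted p under 0.05 was 1, Klf4, without sham day 3 replicate 2 or 3, CAP day 3 replicate 3, sham day 6 replicate 3, or CAP day 6 replicate 1 or 2. It was 2, Klf4 and Zfp750, without CAP day 3 replicate 2 or sham day 6 replicate 1. In these 8 refits 6.92% to 9.54% of all genes had such a p in either direction, against 11.3% with all libraries.

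The other regulators of the epidermis were taken from a list of 24 genes that holds relatives of the members, AP-2 and C/EBP factors and the Notch pathway. At day 6, 2 of the 24 rose with CAP, where 3.8% of all genes passed the threshold, 0 fell, and the list's median log2 difference was 0.34. Barx2, a homeobox factor, went from 26.7 ± 3.01 to 58.7 ± 18.1 TPM (SD, n = 3), a log2 difference of 1.09 ± 0.23 (SE). Ovol2, the relative of Ovol1, went from 1.02 ± 0.23 to 2.24 ± 0.82 TPM (1.02 ± 0.36). An unadjusted p under 0.05 was reached by 9 of the 24 with higher values and by 1 with a lower one, beside 6.67% and 12.5% of all genes. Among the most abundant of the list, Cebpa, a factor of keratinocyte differentiation, was at 335 TPM with CAP and 228 TPM without (0.55 ± 0.16). Cebpb, its relative, was at 429 and 482 TPM (-0.15 ± 0.17). At day 3, 0 of the 24 passed the threshold, with 2 below an unadjusted p of 0.05, near the 6.6% of all genes. Between the days none passed it in either treatment, with 4 genes in each below that p, lower in sham wounds and higher with CAP, where 7.91% and 5.66% of all genes stood so.

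Genes that mark the layers of the epidermis moved at day 6 as follows, where 3.8% of all genes passed the threshold. At an unadjusted p under 0.05, 6.67% of all genes were higher with CAP and 12.5% lower, and 8.01% were higher without overlap. Of 10 suprabasal genes, 4 rose with CAP, Krt1, Krt10, Dsc1 and Calml3, and all 10 had an unadjusted p under 0.05 and groups that did not overlap, with a median log2 difference of 0.90. Krt1, a keratin of the first suprabasal layer, went from 5150.1 ± 1109 to 19616 ± 8936 TPM, and its partner Krt10 from 7748 ± 498 to 25778 ± 13073 TPM (SD, n = 3). Of 20 genes of the cornified envelope and barrier, 8 rose and 0 fell, with a median of 0.73. Higher values were found for 17 of the 20 and lower ones for 3, down to a log2 difference of -1.19. Sprr1a, one of the most abundant of the list, went from 1649 ± 700 to 1276 ± 291 TPM. Sprr2d went from 624 ± 85.2 to 339 ± 264 TPM, and the groups of both genes overlapped. Flg, which encodes the filaggrin precursor, went from 478 ± 182 to 2193 ± 530 TPM, and Lor, which encodes the envelope protein loricrin, from 1704 ± 317 to 4830.3 ± 2029 TPM. Of 12 basal genes, 1 rose, Krt15, from 188 ± 56.5 to 423 ± 39.3 TPM, and the median was 0.11. Of the 4 wound keratins, 0 passed the threshold or an unadjusted p of 0.05. In the suprabasal list, limma's smallest adjusted p was 0.21, and differences ran from 0.70 to 1.86, with 3 of 3 CAP libraries above every sham library for each gene. Beside these stand the changes of other cells: 3 of 7 endothelial genes fell with CAP at day 6 (Pecam1, Cdh5 and Emcn), and their list summed to 255 to 349 TPM in sham and 82.1 to 215 TPM in CAP libraries. None of 10 macrophage genes passed the threshold (2 at an unadjusted p under 0.05), all 10 had a lower mean log2 value with CAP, and they summed to 3618 to 5263 TPM in sham and 2173 to 4160 TPM in CAP libraries. No marker of these 2 cell types was listed at 0 throughout a group. The part of this shift in tissue makeup in the values of the 10 factors was not tested.

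**Figure D4:**
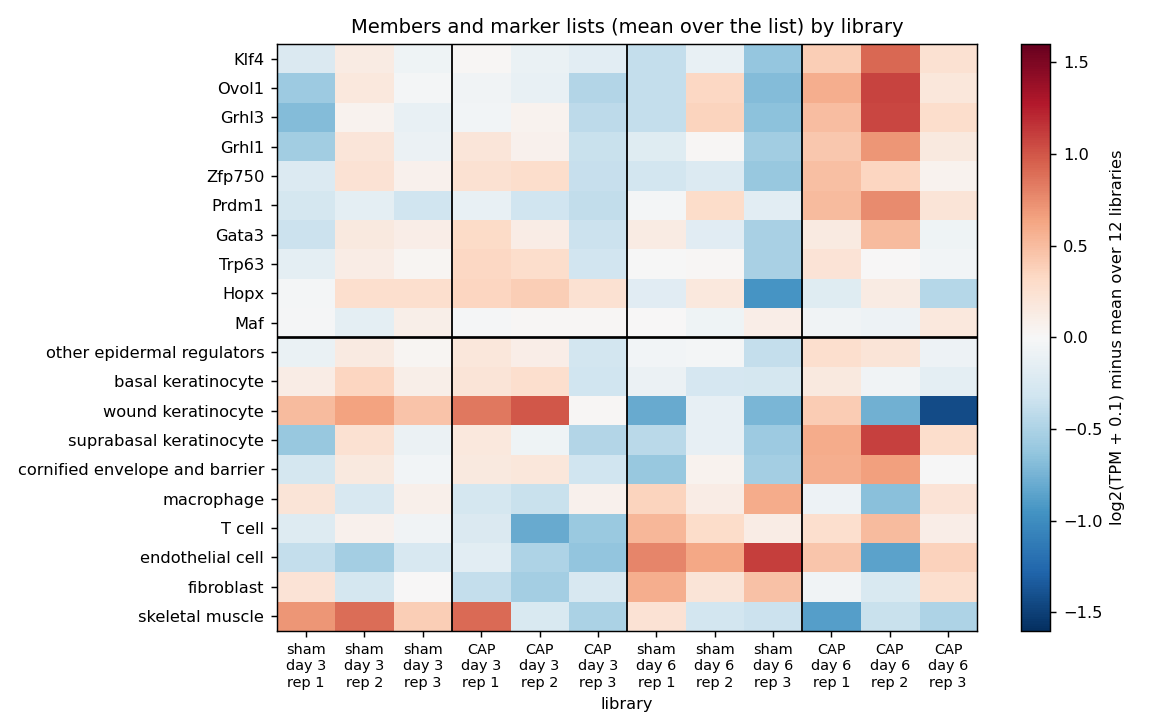
Each gene (rows above the line) and the mean of each of 10 gene lists (below) in the 12 libraries, as log2(TPM + 0.1) minus the row's mean over the libraries; red is above and blue below that mean, and vertical lines part the 4 groups. Klf4, Ovol1, Grhl3 and Grhl1 share their highest library, CAP day 6 replicate 2, with the suprabasal list, while the endothelial list is lowest there.

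The members were also set against the keratinocyte markers of the same library, as log2(TPM + 0.1) minus the mean of a marker list. Against the 12 basal markers at day 6, Klf4 (difference 0.69) and Zfp750 (0.48) were higher in all 3 CAP libraries than in every sham library (exact permutation p = 0.1 each, the smallest possible). These are 2 of 10 members, where 3.57% of all genes stood so and 29.6% stood lower. At day 3 the only such member was Trp63 (0.24), where 3.54% of all genes were higher. Between the days in CAP-treated wounds, 6 of 10 were higher relative to the basal markers, Klf4, Grhl1, Grhl3, Ovol1, Prdm1 and Zfp750, where 7.32% of all genes were. In sham wounds 2 of 10 were, Prdm1 and Maf, where 51.1% of all genes were, and the basal marker mean stood lower at day 6 by 0.40. Against the 10 suprabasal markers, whose mean stood higher with CAP at day 6 by 1.04, 7 of 10 members were lower, where 80.1% of all genes were. The 3 whose groups overlapped on that measure were Klf4, Grhl3 and Ovol1. Between the days in CAP-treated wounds, 5 of 10 were lower relative to the suprabasal markers, where 54.1% of all genes were. In sham wounds, 1 member, Prdm1, was higher on that measure, where 5.96% of all genes were, and at day 3 no member was higher or lower without overlap, where 0.611% and 2.48% of all genes were. These counts moved with single libraries. At day 3 the count higher against basal markers was 5 without sham replicate 3 (8.69% of all genes), 3 without CAP replicate 2 (12.2%) and 2 without CAP replicate 1 or 3 (7.92% and 4.52%). At day 6 it was 6 without sham replicate 2 (6.72% of all genes), and between the days in sham wounds it was 5 without sham day 6 replicate 3 (55.2%). Each of these shares is above that with all libraries.

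Likeness between profiles was measured as the root mean square (RMS) difference of log2 values over the 12 libraries, after each gene's mean was taken off. Grhl3 and Ovol1 were the closest pair of members (0.08), followed by Klf4 and Grhl1 (0.16), Trp63 and Zfp750 (0.18), and Trp63 and Gata3 (0.18). Maf had no member nearer than 0.28 (Trp63), and Hopx none nearer than 0.29 (also Trp63). The measure also depends on how much each gene varies, so a nearest gene need not share a pattern. The SD of log2 values over the 12 libraries was 0.09 for Maf, 0.24 for Trp63 and 0.39 for Hopx. Among 13701 protein-coding genes averaging 1 TPM or more, the nearest to Ovol1 was Mapk13 (0.10), a p38 kinase, which was also the second nearest to Grhl3. Sbsn, which encodes the epidermal protein suprabasin, was nearest to Grhl3 (0.12), and the homeobox factor Dlx3 was the third (0.13). The nearest to Klf4 was Lgalsl (0.10), to Grhl1 Bicdl2 (0.08), to Zfp750 Elmo3 (0.06) and to Trp63 the plexin gene Plxnb1 (0.08). The nearest to Gata3 was Tnfrsf19 (0.06), to Prdm1 Marchf3 (0.10), to Maf the ubiquitin gene Ubb (0.06) and to Hopx Pglyrp3 (0.15), a peptidoglycan recognition protein. Esrp2, an epithelial splicing regulator, was the third nearest to Zfp750 (0.07), and Bcl11b, a zinc finger factor of T cells and skin, the third nearest to Trp63 (0.09). For comparison, the median RMS difference from all candidates ran from 0.24 for Maf to 0.58 for Ovol1.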

How the data were processed

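RNA from mouse wounds was sequenced in 12 libraries, 3 in each of 4 groups. The authors converted reads with bcl2fastq, trimmed them with Trimmomatic 0.36 and estimated expression with StringTie on mm10. For the aligner, the annotation release and the strand setting, the sources used here give nothing. The deposited tables hold TPM for 55487 genes, with 0.0001 in place of 0. Of these genes, 54900 had the same coordinates in GENCODE M21. Depth is unknown, so no counting error could be given, and precision rests on 3 libraries per group.

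The test was limma 3.58.1 (R 4.3.3, intensity trend, 2 groups per fit) on log2(TPM + 0.1), for genes that averaged 0.3 TPM or more in each group. The interaction came from 1 fit of all 12 libraries, with genes that did so in any group. Benjamini-Hochberg adjustment covered every gene tested, and intervals are 95%. Single values relative to keratinocyte markers were tested with a 2-sided exact permutation test. Only the day 6 fit was also run on simulated data, with changes larger than those of the members, so that run cannot speak to differences of their size. Tables and sequences were handled in Python 3.11.15 (pandas 2.3.3, numpy 2.4.6), and matplotlib 3.10.9 drew the figures. The 31-base stretches were taken from GENCODE M21 transcripts.

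The members, lists and tests were chosen with earlier results of these data known. By rule, all 10 members are named, with their nearest genes by RMS difference. From each other list, at most 4 genes with the largest differences past the threshold and the 2 most abundant are named. Vwf and Sprr2d are named beyond this rule. The lists are other epidermal regulators, basal, wound and suprabasal keratinocytes, cornified envelope and barrier, macrophages, T cells, endothelial cells, fibroblasts, sebaceous glands, hair follicles and skeletal muscle. Alternatives were a pseudocount of 1 TPM, no filter, median-ratio scaling, quantile normalization, a minimum of 0.3 TPM in all libraries, a joint fit, the replicate number as a block, and leaving out each library. Deviations of same-numbered libraries were weakly correlated (r from -0.11 to 0.22), so the numbers were not taken as pairs. At day 6, each CAP library still correlated best with the sham library of its own number.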

Additional observations from a re-analysis of the deposited data

Results flagged for a closer look

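The interaction term of the joint fit had an unadjusted p under 0.05 in limma for 4 of the 10 genes, all with a more positive change from day 3 to day 6 in CAP-treated than in sham wounds, where 5.43% of all genes stood so. The day effect was more positive with CAP by 0.92 (log2) for Klf4 (unadjusted p = 0.0041, limma adjusted p = 0.43), by 0.93 for Ovol1 (0.045, adjusted p = 0.44), by 0.65 for Zfp750 (0.037, adjusted p = 0.43) and by 0.48 for Prdm1 (0.0495, adjusted p = 0.44). None of the 4 held after adjustment over all genes. The count was 1, Klf4, in 6 of the 12 fits with 1 library left out, and 2 without the filter on low values. Of all genes, 6.92% to 9.12% in those 6 fits and 8.42% without the filter had such a p in either direction.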

How the results depend on the processing

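Of 340 recomputed values under other settings, 331 kept their direction and side of the threshold. Klf4 at day 6 passed the threshold with median-ratio scaling (members past it: 1 instead of 0), where 3.77% of all genes did, against 3.8% unscaled. With median-ratio scaling and, where a second value is given, quantile normalization, signs turned for Klf4 at day 3 (0.027), Prdm1 at day 3 (0.035 and 0.041), Maf at day 6 (0.11 and 0.044), the interaction of Maf (0.013) and that of Hopx (0.045 and 0.019). The count of members that did not overlap relative to basal markers at day 3 was 2 instead of 1 with quantile normalization. The cause was not tested.

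Leaving out 1 library each gave 360 values, of which 298 kept direction and side, 14 passed the threshold and 48 turned sign, all of the latter with log2 differences of at most 0.17 in the full data. Members past the threshold ranged from 0 to 3 at day 6, 0 to 1 between days with CAP and 0 to 3 for the interaction. Of all genes, 1.69% to 8.17%, 2.1% to 4.91% and 3.23% to 8.74% passed in these refits, in the same order. Non-overlapping counts relative to basal markers ranged from 1 to 5 at day 3, 2 to 6 at day 6 and 2 to 5 between days in sham wounds. At day 3 log2 differences ranged from -0.0085 to 0.31 (Trp63), -0.12 to 0.058 (Klf4), -0.081 to 0.29 (Grhl1), -0.11 to 0.26 (Grhl3), -0.11 to 0.24 (Gata3), -0.29 to 0.088 (Ovol1), -0.11 to 0.035 (Prdm1), -0.10 to 0.23 (Zfp750) and -0.036 to 0.092 (Maf). At day 6 they ranged from -0.085 to 0.043 (Maf) and -0.16 to 0.39 (Hopx). Between days in sham wounds they ranged from -0.26 to 0.0048 (Trp63), -0.29 to 0.080 (Grhl1), -0.27 to 0.24 (Grhl3), -0.32 to 0.0034 (Gata3), -0.39 to 0.12 (Ovol1) and -0.027 to 0.10 (Maf). With CAP they ranged from -0.25 to 0.069 (Trp63), -0.016 to 0.31 (Gata3) and -0.076 to 0.052 (Maf). Interactions ranged from -0.080 to 0.24 (Trp63), -0.12 to 0.031 (Maf) and -0.32 to 0.24 (Hopx).

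With the replicate number as a block, 0 members passed the threshold in any comparison, where 1.63% to 5.35% of all genes did. Members with an unadjusted p under 0.05 between days in sham wounds were then 3 instead of 1 (Klf4, Prdm1, Zfp750). Of all genes, 17.5% had such a p, instead of 16%. That count of members was 0 in the joint fit, where 12% of all genes stood so. For the interaction the count was 2 instead of 4 without the filter, beside 8.42% of all genes instead of 11.3%. Every CAP library correlated best with the sham library of its own number in the day 6 comparison, a hint from the data and not the design. Genes past the threshold over the whole table were 290 at day 3 (154 with a pseudocount of 1 TPM, 568 with no filter, 510 without CAP replicate 1), 697 at day 6 (385 with the pseudocount, 311 without CAP replicate 2, 1483 without CAP replicate 3), 688 between days in sham wounds (405 and 1156), 507 with CAP (299 and 842, and 886 without CAP day 6 replicate 3) and 994 for the interaction (580 with the pseudocount, 646 with 0.3 TPM in every library, 657 to 1777 with 1 library left out). At day 3, 78 were higher and 212 lower, against 101 and 160 with quantile normalization. At an adjusted p under 0.05, day 6 gave 0 genes in all settings but 1: without CAP replicate 3, 519 were higher and 911 lower. At day 6, 268 were past the threshold and higher and 429 lower, against 393 and 298 with median-ratio scaling and 406 and 244 with quantile normalization. Depth is unknown, so its limit could not be given.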

Other observations

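Other lists gave these values. With CAP, 1.58% of all genes passed the threshold at day 3 and 3.8% at day 6. Between the days, 3.75% did in sham wounds and 2.79% in CAP-treated wounds. An unadjusted p under 0.05 in either direction was reached by 6.6%, 19.2%, 16% and 11.6% of all genes, in the same order. Of 4 wound keratins, which are induced in migrating keratinocytes, Krt6b and Krt6a fell between day 3 and day 6 in sham wounds (log2 differences of -1.41 and -1.23, limma adjusted p = 0.024 and 0.033, in 3 of 3 libraries each). With CAP, Krt6b, Krt6a and Krt17 fell (-1.55, -1.32 and -1.20), with 2 of 3 day 6 libraries below all of day 3. In sham wounds, 5 of 7 endothelial genes rose between the days, Emcn, Cdh5, Pecam1, Tie1 and Vwf, and with CAP 0 of 7 passed the threshold (1 at an unadjusted p under 0.05). Of 9 T cell genes tested, 2 fell with CAP at day 3 (Trac and Cd2) and 5 were lower at an unadjusted p under 0.05. Both of the former were low, Trac at 2.07 TPM in sham and 0.80 TPM in CAP libraries, and Cd2 at 4.75 and 2.47 TPM. At day 6, 0 of the T cell genes passed the threshold or an unadjusted p of 0.05. Between the days in sham wounds Cd4 rose (log2 difference 2.31, limma adjusted p = 0.025, in 3 of 3 libraries) and in CAP-treated wounds Cd4 and Trac did (2.15 and 1.06). None of 7 fibroblast genes passed the threshold with CAP at either day (3 and 2 at an unadjusted p under 0.05), and their medians were -0.42 at day 3 and -0.34 at day 6. Of 4 hair follicle genes tested at day 6, 2 fell with CAP (Tchh and Krt75). The whole hair follicle list was low there, summing to 9.32 to 17.7 TPM in CAP libraries. In sham libraries it summed to 104 TPM in replicate 1, 36.9 in replicate 2 and 36.2 in replicate 3. Myh4, of 7 skeletal muscle genes, fell with CAP at day 6. No sebaceous gland gene passed the threshold with CAP at either day, of 4 tested at day 3 (0 at an unadjusted p under 0.05) and 5 at day 6 (1 at that p).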
